A study of Homo sapiens with 4 samples.

Results

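The miR-374 family is a small group of X-linked microRNAs (miRNAs) made from the hairpins MIR374A, MIR374B and MIR374C. Its 6 mature arms (hsa-miR-374a-5p, hsa-miR-374a-3p, hsa-miR-374b-5p, hsa-miR-374b-3p, hsa-miR-374c-5p and hsa-miR-374c-3p, written below without the species prefix) were taken by name from the 1474 miRNAs listed in at least 1 of 4 small RNA libraries of human colorectal cancer cells. The family was selected because miR-374b-5p was much lower in radioresistant HCT116 cells than in their parental cells, so all values of that pair are given as a description, without a test. HCT116-R and RKO-R, which have acquired radioresistance, were sequenced beside the untreated parental lines HCT116 and RKO. HCT116 and RKO are established colorectal cancer cell lines, and the resistant lines were derived from them with repeated X-ray fractions of 4 Gy, to a total of 40 Gy, and then kept for at least 3 weeks without irradiation. There was 1 library per line, so no difference has a replicate check, and the intervals below cover counting error only.

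A miRNA hairpin is cut by Drosha and Dicer into a duplex of a 5p and a 3p arm, of which one is usually kept by an Argonaute protein as the guide strand while the other is degraded. The guide pairs with target mRNAs mainly through its seed, here bases 2 to 8 from the 5′ end. Hairpins that lie on opposite strands of the same bases give products that are reverse complements of each other, and reads of such products can be assigned to one or the other only by strand.

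The annotation (GENCODE release 29, GRCh38) places all 3 hairpins inside FTX, a long non-coding RNA gene of the X-inactivation centre on the minus strand of chromosome X from 73946555 to 74293574. Apart from MIR374B and MIR374C, which overlap each other, none of them overlapped an annotated exon of another gene or of FTX, so MIR374A and MIR374B are intronic and in the sense direction of FTX. MIR374A occupied chrX:74287286-74287357 and MIR374B chrX:74218547-74218618, both on the minus strand. MIR374C lay on the plus strand at chrX:74218549-74218618, so its 70 bases fell within the 72 bases of MIR374B. The mature sequences matched in RefSeq (GRCh38.p14) for 5 of the 6 members are shown because the counts of the family turn on how these sequences relate, and capitals mark the seed.
miR-374a-3p: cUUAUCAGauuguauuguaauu
miR-374b-5p: aUAUAAUAcaaccugcuaagug
miR-374b-3p: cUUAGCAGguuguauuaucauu
miR-374c-5p: aUAAUACAaccugcuaagugcu
miR-374c-3p: cACUUAGCagguuguauuauau

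These 5 sequences were 22 bases long and their 5 seeds all differed. The seed of miR-374a-5p, the member that was not matched, was not compared. The mature sequences searched did not include miR-374a-5p, so a seed that it shares with any of these 5 could not be found. Among the sequences searched, only the seed of miR-374c-5p of these 5 was found in another miRNA, miR-655-3p. That miRNA had 1 count in HCT116 and in HCT116-R and none in the RKO libraries. MiR-374b-5p and miR-374c-3p were encoded by the same 22 bases, chrX:74218587-74218608, on the minus and the plus strand respectively, and are reverse complements over their full length. MiR-374b-3p and miR-374c-5p were reverse complements over 18 bases.

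The arms of miR-374b and miR-374c also resembled each other in the same orientation. In the following lines, which are shown because they explain which members could share reads, capitals mark the stretch common to the sequences compared.
miR-374b-5p: auAUAAUACAACCUGCUAAGUG
miR-374c-5p: AUAAUACAACCUGCUAAGUGcu
miR-374b-3p: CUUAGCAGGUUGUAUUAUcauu
miR-374c-3p: caCUUAGCAGGUUGUAUUAUau
MiR-374b-5p and miR-374c-5p shared 20 bases, and miR-374b-3p and miR-374c-3p shared 18 bases. MiR-374a-3p shared at most 7 bases in a row with any of the other 4. The use of strand and the treatment of reads that match several places are not given in the sources used here, so the counts of the miR-374b and miR-374c arms are uncertain when taken singly.

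The library totals were close, from 6818497 counts in HCT116-R to 7140460 in RKO, and 3 counts, the smallest level used as a floor, corresponded to 0.420 to 0.440 CPM (counts relative to the library total, on the usual CPM scale). Of 8 epithelial or intestinal miRNAs (the miR-200 family, miR-192-5p, miR-194-5p and miR-215-5p), 7 had at least 10 counts in every library, with a summed level of 10096 CPM in RKO to 62978 CPM in HCT116, and miR-215-5p had at most 3 counts. The lines differed within this list. MiR-200c-3p had 291469 counts in HCT116 against 649 in RKO, and miR-141-3p had 6630 against 17, while miR-192-5p had 1542 against 1574. A list of 7 miRNAs of blood cells, muscle and neurons summed to between 6.51 and 27.4 CPM.

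In 3 of the libraries, miR-374b-5p was the most abundant arm of the family. Its level was 164 CPM in HCT116 (1118 counts, 95% Wilson interval 155 to 174) against 2.64 CPM in HCT116-R (18 counts, 1.67 to 4.17). In RKO it was 200.4 CPM (1431 counts, 190.3 to 211), against 174 CPM in RKO-R (1202 counts, 164 to 184). Bulk RNA was sequenced, so a lower level per cell and fewer cells holding the miRNA cannot be told apart. HCT116-R was the single low library, where miR-374b-5p ranked 507 among all miRNAs by level, against ranks of 119 to 133 in the others. MiR-374c-3p followed in abundance, with 96.9 CPM in HCT116 (661 counts) against 204 CPM in HCT116-R (1394 counts), and 119.6 CPM in RKO (854 counts) against 106 CPM in RKO-R (736 counts). For this arm HCT116-R was the highest library, and its interval of 194 to 215 CPM did not overlap the others.

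The remaining arms were less abundant and varied less. MiR-374a-5p had 148 counts in HCT116 against 137 in HCT116-R, and 186 in RKO against 126 in RKO-R, or 21.7, 20.1, 26.0 and 18.2 CPM. MiR-374a-3p had 197, 140, 136 and 148 counts in the same order, or 28.9, 20.5, 19.0 and 21.4 CPM. MiR-374b-3p, the arm opposite miR-374b-5p in its hairpin, had 193, 151, 196 and 176 counts, or 28.3, 22.1, 27.4 and 25.5 CPM. Its 4 intervals overlapped one another. MiR-374c-5p was at the limit of detection, with 4 counts in RKO-R and 1 count in each of the other libraries.

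In every library the 2 arms of miR-374a and miR-374b-3p lay between 18.2 and 28.9 CPM. Their intervals overlapped pairwise within HCT116 and HCT116-R. In RKO-R, miR-374a-5p (15.3 to 21.7 CPM) lay just under miR-374b-3p (21.97 to 29.5 CPM), and miR-374a-3p overlapped both. In RKO, miR-374a-3p (16.1 to 22.5 CPM) lay just under miR-374a-5p (22.6 to 30.1 CPM) and miR-374b-3p (23.9 to 31.6 CPM). The order of levels in HCT116, RKO and RKO-R was miR-374b-5p, then miR-374c-3p, then these 3 arms, and miR-374c-5p last. In HCT116-R, miR-374c-3p came first and miR-374b-5p lay below both miR-374a arms and miR-374b-3p.

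**Figure D1:**
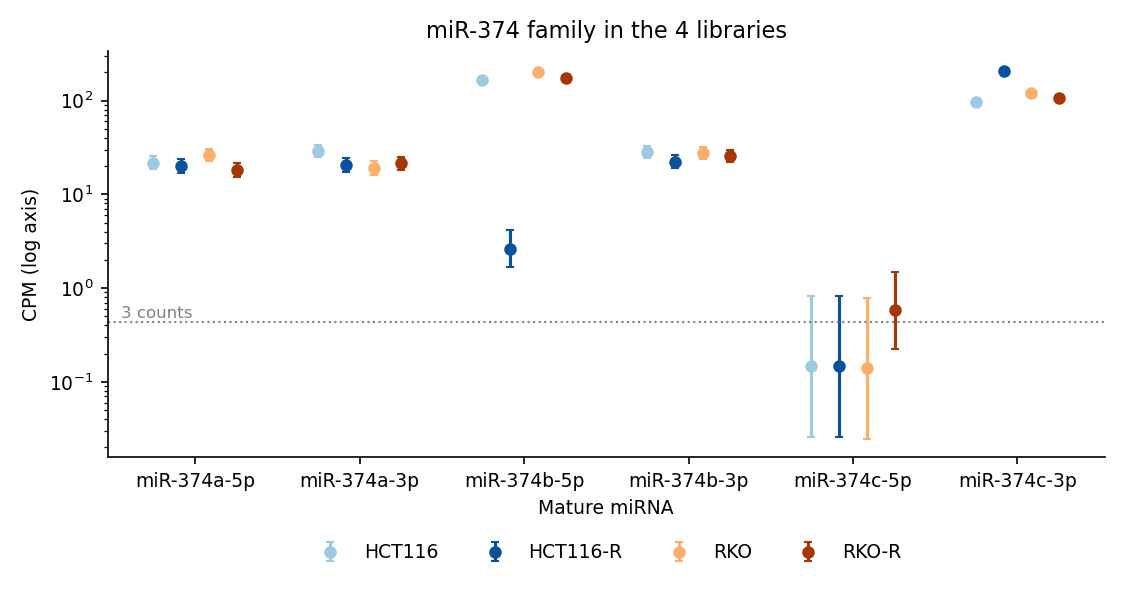
Level of each mature arm of the miR-374 family in CPM (log axis) in the 4 libraries, with points for the level and bars for the 95% Wilson interval. MiR-374b-5p in HCT116-R, at 2.64 CPM, stands apart from the other 3 libraries (164 to 200.4 CPM), while miR-374a lies between 18.2 and 28.9 CPM throughout, and the dotted line marks 3 counts.

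Does miR-374a follow miR-374b-5p in HCT116-R? The level of miR-374b-5p was 62.1-fold lower in HCT116-R than in HCT116, a log2 ratio of CPM of -5.96 (95% exact conditional interval -6.72 to -5.29). Of the 639 miRNAs that reached 10 counts in HCT116 or HCT116-R, 2 had a lower ratio. MiR-374a-5p, in contrast, stood at 0.926 of its parental level (0.729 to 1.18), a range that includes 1. MiR-374a-3p stood at 0.711 of its parental level (0.568 to 0.888), a range that lies below 1, and the log2 ratio of -0.49 was far smaller in size than that of miR-374b-5p. MiR-374b-3p, from the same hairpin as miR-374b-5p, stood at 0.783 (0.629 to 0.974). Thus 3 of the other arms stayed within 2-fold of the parental level.

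MiR-374c-3p moved the other way in the same pair, at 2.11 times the level of HCT116 (1.92 to 2.32). MiR-374c-5p had 1 count in each library, too few for a ratio. With a limit of 2-fold, 1 of the 5 members with at least 10 counts was lower (miR-374b-5p) and 1 was higher (miR-374c-3p), and with the size factors of DESeq2 the log2 ratio of miR-374c-3p, 0.98, missed that limit. Over all 639 miRNAs, 26.0% were past 2-fold in either direction, 9.39% lower and 16.6% higher. The median log2 ratio was -0.35 over the 5 members and 0.02 over all miRNAs. Because this pair was used to choose the family, nothing further is read from these counts.

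In the RKO pair, which was not used to choose the members, all 5 members with at least 10 counts were within 2-fold of the parental level. MiR-374b-5p was at 0.868 (0.803 to 0.937), miR-374c-3p at 0.890 (0.806 to 0.984) and miR-374b-3p at 0.927 (0.752 to 1.14) of the level of RKO when scaled by the library totals. MiR-374a-5p was at 0.6997 (0.554 to 0.882) and miR-374a-3p at 1.12 (0.885 to 1.43). MiR-374c-5p, with 4 counts against 1, had a ratio of 4.13 with an interval from 0.409 to 203. Of the 539 miRNAs of this pair with at least 10 counts, 33.6% were past 2-fold. These were 129 lower (23.9%) and 52 higher (9.65%) with library totals, 102 and 65 with TMM, and 90 and 72 with the size factors of DESeq2. The direction of miR-374b-5p, miR-374c-3p and miR-374b-3p depended on this scaling. The miR-374a arms kept their direction, but their size depended on it. With DESeq2 the log2 ratio was -0.15 for miR-374a-5p and 0.53 for miR-374a-3p, against -0.52 and 0.17 with totals. The scaling moved the median log2 ratio of all 539 miRNAs from -0.27 with totals to -0.03 with TMM and 0.09 with DESeq2.

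The RKO pair was also tested with the exact test of edgeR, using TMM normalization and the biological coefficient of variation (BCV) of 0.2 that the methods name, with Benjamini-Hochberg adjustment over 1155 miRNAs. This test compares the libraries and not the conditions, and the standard error (SE) of each fold change follows from its counts and this preset BCV. None of the 6 members was called at an adjusted p under 0.05, against 5.54% of all miRNAs tested. An unadjusted p under 0.05 was reached by 0 members, against 148 of the 1155 miRNAs. The log2 fold change was 0.03 for miR-374b-5p (SE 0.41), 0.07 for miR-374c-3p (SE 0.41), 0.13 for miR-374b-3p (SE 0.43), -0.28 for miR-374a-5p (SE 0.44) and 0.41 for miR-374a-3p (SE 0.44), and the edgeR exact test gave each an adjusted p of 1. With SE of this size, the test could not resolve moderate changes, and the smallest fold change it would call was not determined. The absence of calls therefore does not show that the levels were equal.

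**Figure D2:**
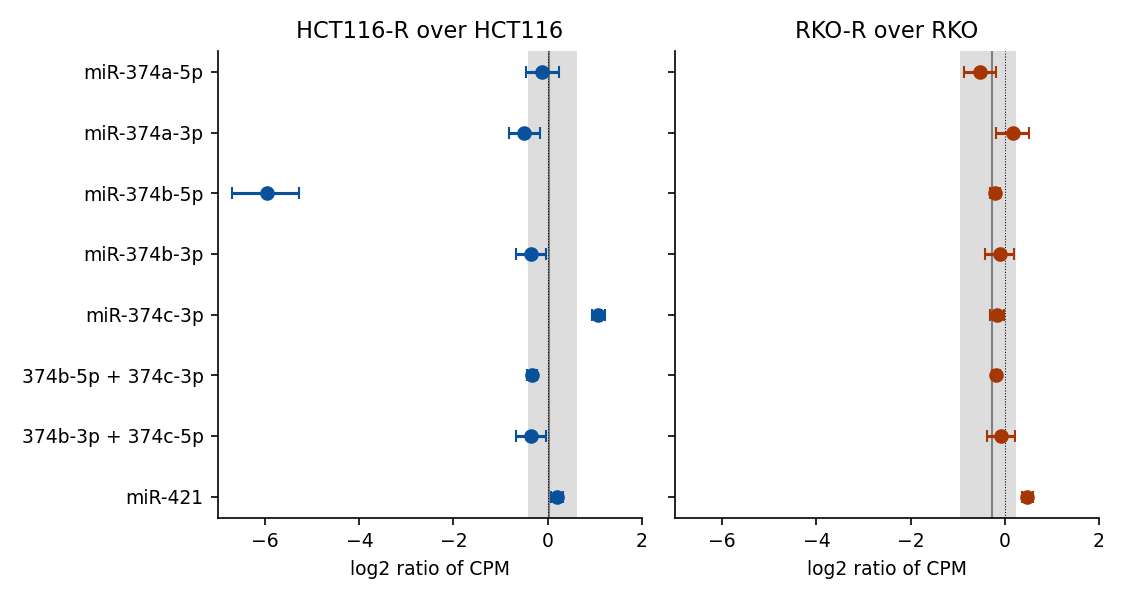
Log2 ratio of CPM in each radioresistant library over its parental library for 5 members, both antisense sums and miR-421, with 95% exact conditional intervals, where the grey band and line give the interquartile range and median of all miRNAs with at least 10 counts in the pair. MiR-374b-5p lies at -5.96 in the HCT116 pair and at -0.20 in the RKO pair, while the sum with miR-374c-3p lies at -0.33 and -0.19.

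Counted together, miR-374b-5p and miR-374c-3p, the reverse complements printed above, gave 1779 counts in HCT116 against 1412 in HCT116-R, and 2285 in RKO against 1938 in RKO-R. The summed level was 261 CPM (249 to 273) and 207 CPM (197 to 218) in the HCT116 pair, and 320.0 CPM (307 to 333) and 280.3 CPM (268 to 293) in the RKO pair. HCT116-R was still the lowest library, at 0.794 of the level of HCT116 (0.740 to 0.852), a log2 ratio of -0.33 in place of the -5.96 of miR-374b-5p alone. This ratio lay inside the interquartile range of all miRNAs of the pair, which ran from -0.43 to 0.62. In the RKO pair the sum was at 0.876 (0.824 to 0.931) with library totals, and its direction turned with TMM, where the edgeR exact test gave a log2 fold change of 0.05 and an adjusted p of 1. From HCT116 to HCT116-R the count of miR-374b-5p fell by 1100, and that of miR-374c-3p was 733 higher.

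The division of this sum was nearly constant in 3 libraries. MiR-374c-3p made up 37.2% of the sum in HCT116 (95% Wilson interval 34.9 to 39.4), 37.4% in RKO (35.4 to 39.4) and 38.0% in RKO-R (35.8 to 40.2). In HCT116-R it made up 98.7% (98.0 to 99.2). The 3 first intervals overlapped, and the interval of HCT116-R lay apart from them. Whether the line or the radioresistance took part in this division was not tested. The part of the assignment of reads to strands was not tested either.

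**Figure D3:**
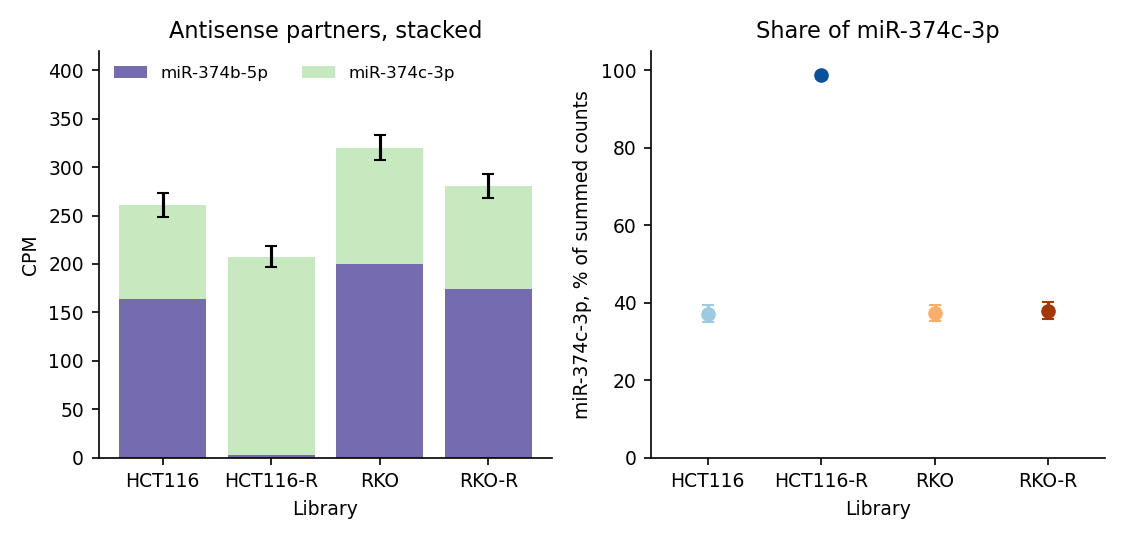
Left, level in CPM of miR-374b-5p and miR-374c-3p stacked in each library, with the 95% Wilson interval of the sum as a bar. Right, the percent of the summed counts held by miR-374c-3p with its 95% Wilson interval, which was 98.7% in HCT116-R and between 37.2% and 38.0% in the other libraries.

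The other arms of the same locus did not show such a division. MiR-374b-3p and its antisense partner miR-374c-5p summed to 194 and 152 counts in the HCT116 pair and to 197 and 180 counts in the RKO pair, and miR-374b-3p held 99.5%, 99.3%, 99.5% and 97.8% of them. In HCT116-R this sum was at 0.784 of its parental level (0.6299 to 0.974), close to the 0.794 of the sum of miR-374b-5p and miR-374c-3p. With all arms of the locus summed, the miR-374b and miR-374c hairpins were at 0.793 (0.742 to 0.848), and the arms of miR-374a, summed over 345 and 277 counts, were at 0.803 (0.683 to 0.944). By hairpin locus, then, miR-374a and the miR-374b/c locus stood at similar fractions of the parental level in HCT116-R, and their intervals overlapped. The 6 members together gave 339.7 CPM in HCT116 against 270.0 CPM in HCT116-R, and 393 CPM in RKO against 346 CPM in RKO-R.

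The ratio of 5p to 3p counts is used to describe which arm of a hairpin is retained. For miR-374b and miR-374c it rests on arm counts that are uncertain when taken singly, so it does not show arm retention there. MiR-374a used both arms about equally, with a ratio of 0.751 in HCT116 (95% exact conditional interval 0.603 to 0.935), 0.979 in HCT116-R (0.767 to 1.25), 1.37 in RKO (1.09 to 1.72) and 0.851 in RKO-R (0.666 to 1.09). The intervals of HCT116 and RKO lay on opposite sides of 1, and those of RKO and RKO-R missed each other narrowly. MiR-374b had a clear excess of 5p reads in 3 libraries, with ratios of 5.79 in HCT116 (4.97 to 6.78), 7.30 in RKO (6.28 to 8.52) and 6.83 in RKO-R (5.83 to 8.05). In HCT116-R the ratio was 0.119 (0.0688 to 0.195), so the 3p arm had the higher assigned count there. MiR-374c was counted almost entirely as 3p, with 661 and 1394 reads of the 3p arm per 5p read in the HCT116 pair and 854 and 184 in the RKO pair, resting on 1 to 4 counts of the 5p arm.

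Set beside 236 hairpins with both arms listed and at least 20 summed counts in HCT116 and in HCT116-R, the change of the log2 ratio was -5.56 for miR-374b, exceeded in size by 3 hairpins, miR-3529, miR-423 and miR-3184. This change contains the fall of miR-374b-5p by which the family was chosen, so its place among the hairpins is not a separate finding. A 4-fold change was reached by 14.8% of these hairpins, and the median change in size was 0.72. MiR-374a changed by 0.38 and miR-374c by -1.08. In the RKO pair the change was -0.10 for miR-374b, with 171 of 184 hairpins changing more, -0.68 for miR-374a, close to the median size of 0.68, and 1.80 for miR-374c, whose 5p arm had at most 4 counts. None of these reached 4-fold, which 13.6% of the hairpins of the RKO pair did.

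With the antisense arms combined, so that miR-374b-5p and miR-374c-3p formed one side and miR-374b-3p and miR-374c-5p the other, the ratio was 9.17 in HCT116 (7.90 to 10.7), 9.29 in HCT116-R (7.85 to 11.1), 11.6 in RKO (10.02 to 13.5) and 10.8 in RKO-R (9.24 to 12.6). All 4 intervals overlapped. HCT116-R, which stood apart in the ratio of the miR-374b hairpin, lay next to its parental line here.

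**Figure D4:**
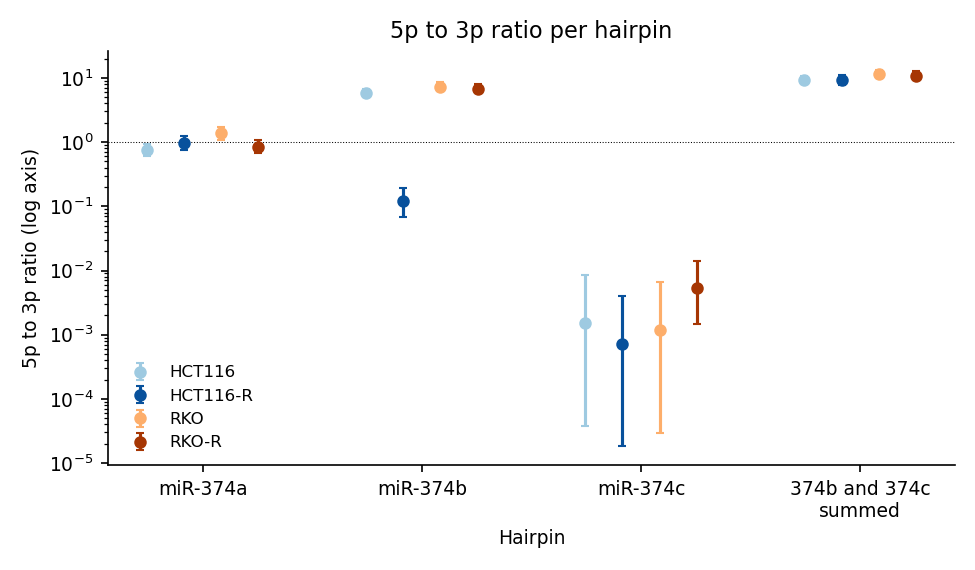
Ratio of 5p to 3p counts (log axis) per hairpin and library, with 95% exact conditional intervals, where the last group combines miR-374b-5p with miR-374c-3p and miR-374b-3p with miR-374c-5p. The miR-374b ratio is 0.119 in HCT116-R against 5.79 to 7.30 elsewhere, and the combined ratio lies between 9.17 and 11.6.

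A search of the mature sequences for unbroken reverse-complement stretches of at least 16 bases between listed miRNAs of different hairpins gave 26 pairs. The division of counts was compared where a pair had at least 20 summed counts in both libraries, as the log2 ratio of its partners. In the HCT116 pair, 4 of 15 such pairs (26.7%) shifted by at least 3 on this scale, and miR-374b-5p with miR-374c-3p shifted by 6.99. The others were miR-423-5p with miR-3184-3p (16.2), miR-7-5p with miR-3529-3p (15.1) and miR-642a-3p with miR-642b-5p (7.29). In the RKO pair, 5 of 12 pairs (41.7%) shifted, and miR-374b-5p with miR-374c-3p shifted by 0.04.

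Of the 11 pairs that could be compared in both lines, 2 shifted in both (miR-423-5p with miR-3184-3p, and miR-7-5p with miR-3529-3p) and 3 in the RKO pair alone. MiR-374b-5p with miR-374c-3p was the only one of the 11 that passed this limit in the HCT116 pair alone, which is the contrast it was chosen by. MiR-642a-3p with miR-642b-5p, which shifted by 7.29 in the HCT116 pair, was not among the 11. It had 6 summed counts in RKO and 5 in RKO-R, too few to compare, and all of them were miR-642b-5p. MiR-103a-3p with miR-103b, a pair of the miR-103 family, passed the limit in the RKO pair alone. MiR-103b held 8.06% of that pair in RKO-R, against 87.4% in RKO, 94.5% in HCT116 and 97.5% in HCT116-R. The sum of this pair was 7940 counts in RKO and 8623 in RKO-R. Both remaining pairs of the RKO-only group were sparser, miR-219a-2-3p with miR-219b-5p and miR-550a-5p with miR-550b-3p. The first shifted in the same direction in both lines, by 3.52 in the RKO pair and by 2.66, just short of the limit, in the HCT116 pair. The second shifted by 3.29 in the RKO pair and by 1.30 in the opposite direction in the HCT116 pair.

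**Figure D5:**
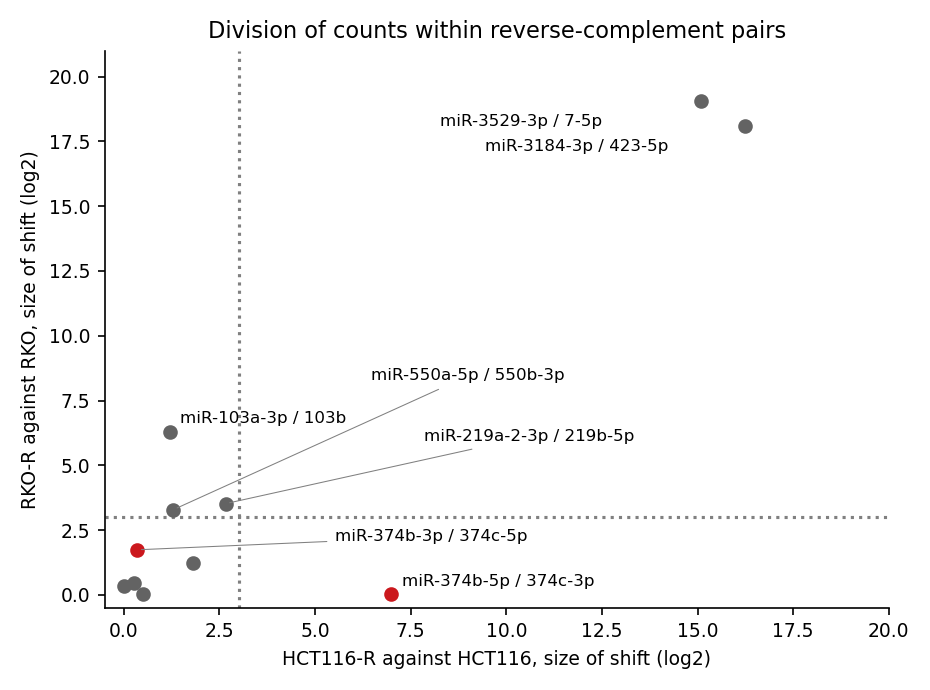
Size of the shift in the log2 ratio of partners in 11 reverse-complement pairs, HCT116-R against HCT116 on the horizontal axis and RKO-R against RKO on the vertical axis, with dotted lines at 3 and the miR-374 pairs in red. MiR-374b-5p with miR-374c-3p lies at 6.99 and 0.04, and the 2 pairs at the upper right shifted in both lines.

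The FTX locus holds further miRNAs beside these hairpins. MIR421 lies next to MIR374B (chrX:74218377-74218461) and MIR545 next to MIR374A (chrX:74287104-74287209), both on the minus strand in FTX introns. MiR-421 had 861 counts in HCT116 against 985 in HCT116-R, and 934 in RKO against 1265 in RKO-R, so it was not low in the library in which miR-374b-5p was low. Its level was 1.14 times the parental level in HCT116-R (1.04 to 1.26) and 1.40 times in RKO-R (1.28 to 1.52), and in the RKO pair its log2 fold change of 0.72 was not called (edgeR exact test, SE 0.41, adjusted p = 0.50). MiR-545-3p was rare, with 9 and 8 counts in the HCT116 pair and 6 and 11 in the RKO pair. MiR-545-5p had 1 count in RKO and 0 in the other 3 libraries, where the floor of 3 counts corresponds to 0.434 to 0.440 CPM. Of these 3 neighbours, none was called in the RKO pair, where 5.54% of all miRNAs tested were called. The counts of miR-545-5p and miR-545-3p were too low for this to describe them.

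Between the parental lines the family differed little. MiR-374b-5p was 1.22 times as abundant in RKO as in HCT116 (1.13 to 1.32) and miR-374c-3p 1.23 times (1.11 to 1.37), which are nearly equal ratios for partners of 1 locus. MiR-374a-3p was at 0.6597 of the HCT116 level (0.526 to 0.825), and the intervals of miR-374a-5p (0.963 to 1.501) and miR-374b-3p (0.791 to 1.19) included 1. Between the resistant lines, miR-374b-5p was 65.9 times as abundant in RKO-R as in HCT116-R (41.5 to 112). This ratio contains the low HCT116-R value by which the family was chosen, and it rests on an arm count that is uncertain when taken singly. MiR-374c-3p was at 0.521 of the HCT116-R level in RKO-R (0.476 to 0.570). The sum of miR-374b-5p and miR-374c-3p was at 1.35 times that level (1.26 to 1.45).

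The profiles most like those of the members were found among 346 miRNAs with at least 100 counts in a library, as the Euclidean distance between log2(CPM + 1) values centred over the 4 libraries. For miR-374a-5p, let-7d-3p was nearest at a distance of 0.0758, followed by miR-27b-5p (0.154) and miR-378a-3p (0.183). For miR-374c-3p, miR-664a-3p was nearest at 0.169, with 88 and 174 counts in the HCT116 pair and 124 and 97 in the RKO pair, followed by miR-1292-5p (0.328) and miR-96-5p (0.378). MiR-374b-5p had no close neighbour: the nearest, miR-1307-5p, was at 2.99 and had 414 and 16 counts in the HCT116 pair and 89 and 932 in the RKO pair, followed by miR-29a-5p (3.12) and miR-153-3p (3.64). Only 4 libraries enter each distance, so these are descriptions of the libraries. The distances of miR-374b-5p include the low HCT116-R value by which it was chosen, so its lack of a close neighbour is not a separate finding.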

How the data were processed

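Gel-purified small RNA of each line was turned into 1 library carrying unique molecular identifiers and read on a BGISEQ-500. The files deposited by the authors give unnormalized counts, the number of reads assigned to each mature miRNA. The submitters' processing notes name Bowtie2 and hg38, while the miRNA annotation, the use of strand and the collapsing of identifiers are not given in the sources used here. Files listed miRNAs with at least 1 count, and a missing miRNA was set to 0. No columns of other samples were present. Counts were scaled by the library total to CPM. Shares carry 95% Wilson intervals and ratios exact conditional binomial intervals, covering counting error only. A call at 2-fold required 10 counts in 1 library of the pair, with counts under 3 raised to 3. The RKO pair was tested with the edgeR exact test (version 4.0.16, R 4.3.3, BCV 0.2, TMM). The scripts were tested on simulated data. For log2 ratios within pairs and hairpins, 0.5 was added to each count. Sequences came from RefSeq (GRCh38.p14), which matched 1313 of 1474 listed miRNAs. Named miRNAs were the members, their FTX neighbours, miRNAs sharing a seed, the antisense pairs that shifted most, and the 3 nearest profiles. The members and lists were chosen with earlier results of these data known. Alternatives were TMM, DESeq2 (version 1.42.0) size factors, totals without the 10 most abundant miRNAs, a pseudocount of 1 CPM, other BCVs, filters, fold limits and overlaps, and summed antisense pairs. Python 3.11.15 with scipy 1.17.1 was used.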

Additional observations from a re-analysis of the deposited data

Results flagged for a closer look

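MiR-374c-3p was singled out because its level moved in opposite directions in the cell lines, with counting intervals clear of 0 in both. The log2 ratio of CPM was 1.08 in HCT116-R over HCT116 and -0.17 in RKO-R over RKO. The difference between the lines was not tested, since the HCT116 pair was used to choose the family, and the direction in the RKO pair turned with TMM (0.07).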

How the results depend on the processing

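No paired analysis was possible because there was 1 library per line. In the RKO pair, the log2 ratio with TMM and with DESeq2 size factors was 0.032 and 0.16 for miR-374b-5p, 0.069 and 0.19 for miR-374c-3p and 0.046 and 0.17 for their sum, against -0.20, -0.17 and -0.19 with library totals. For miR-374b-3p it was 0.13 and 0.25 against -0.11 with library totals, where its interval included 0. These reversals follow from the scaling itself, which moved all miRNAs of the pair alike. MiR-374a-5p went from -0.52 with library totals to -0.28 with TMM and -0.15 with DESeq2 size factors. In the same order, miR-374a-3p went from 0.17 to 0.41 and 0.53, and miR-421 from 0.48 to 0.72 and 0.85. The DESeq2 values of these miRNAs lay outside their counting intervals. In the HCT116 pair the sum ranged from -0.43 to -0.26 over the alternatives. Of the 5 members with at least 10 counts, 1 was past the limit in the HCT116 pair with a fold limit of 4 or with DESeq2 size factors, against 2. Of all 639 miRNAs, 58 were past the fold limit of 4 and 153 past the limit with DESeq2 size factors, against 166. Summing antisense arms gave the locus ratios 9.17, 9.29, 11.6 and 10.8 in place of the miR-374b ratios in HCT116, HCT116-R, RKO and RKO-R, and their inverses, 0.109, 0.108, 0.0862 and 0.0929, in place of those of miR-374c. With at least 100 summed counts, 3 pairs shifted in the RKO pair, against 5. No member was called in the edgeR exact test of the RKO pair under any of the 7 alternatives, while the calls over all miRNAs were 64, and 148 and 9 at a BCV of 0.1 and 0.4. Of 113 alternative values, 91 stayed within the counting interval or within 1.5 times. A change of side was counted only where that interval lay clear of 0, so miR-374b-3p in the RKO pair with TMM is among the 91. Depth limits the values of miR-374c-5p, which had 1 to 4 counts.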
